A study of Mus musculus with 13 samples.

Results

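Of the 39171 genes measured in sorted cells of the mouse spinal cord, 9 that mark neutrophils or monocytes are described here in the cells sorted by CD11b. They were chosen by symbol. The 6 neutrophil genes were S100a8, S100a9, Retnlg, Ngp, Camp and Ltf, and the 3 monocyte genes were Ly6c2, Ccr2 and Plac8. The libraries came from C57BL/6 mice that lacked Il33 (KO) or from their WT littermates, and fell into 4 groups. The CD11b sorts, called microglia by the labels, gave 3 KO and 3 WT libraries, all of postnatal day 12. The sorts of cells with green fluorescence from the astrocyte gene Aldh1l1 gave 4 KO and 3 WT libraries. These astrocyte libraries were of day 12, except KO library 2 and WT library 3, which were of day 9. Il33 encodes a cytokine of the IL-1 family, and the KO line is the one the design text credits to Pichery and colleagues. The design text calls the libraries of each group biological replicates. Nothing given here says whether mice were pooled for a library.

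CD11b is a subunit of an integrin that microglia, neutrophils and monocytes all carry on their surface. A sort on CD11b alone therefore does not separate microglia from these blood cells, and the labels name no other marker for the sort. Neutrophils store proteins that kill microbes in granules, which are filled in turn while the cell matures in the bone marrow. Primary granules are made earliest, with proteases such as elastase. Secondary granules follow, with lactoferrin and cathelicidin, and mature cells hold much S100A8 and S100A9 in the cytosol. Classical monocytes carry Ly6C and leave the marrow through the chemokine receptor CCR2.

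The stretches before the starts of 4 of the genes are printed, the S100 genes and 2 of the 3 genes of secondary granules. Each is the 250 bases upstream of the start that RefSeq gives on GRCm38.p6, 5′ to 3′ on the strand of the gene. S100a8 lies at chr3:90668821-90669070 on the plus strand, S100a9 at chr3:90695722-90695971 on the minus strand, Ngp at chr9:110419558-110419807 and Ltf at chr9:111019042-111019291, both on the plus strand. Capitals mark matches to 3 motifs on either strand, TTGCNNAA of the C/EBP factors, GAGGAA, the core bound by PU.1, and the TATA box TATAAA.
S100a8: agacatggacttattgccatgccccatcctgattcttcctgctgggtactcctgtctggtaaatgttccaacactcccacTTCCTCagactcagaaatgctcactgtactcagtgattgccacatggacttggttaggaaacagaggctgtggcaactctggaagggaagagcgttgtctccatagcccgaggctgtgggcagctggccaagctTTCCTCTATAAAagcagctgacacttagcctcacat
S100a9: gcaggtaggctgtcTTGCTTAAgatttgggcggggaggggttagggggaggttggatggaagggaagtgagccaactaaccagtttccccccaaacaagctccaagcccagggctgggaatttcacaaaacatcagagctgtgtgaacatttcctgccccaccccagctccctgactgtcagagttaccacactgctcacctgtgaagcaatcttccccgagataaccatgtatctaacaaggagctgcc
Ngp: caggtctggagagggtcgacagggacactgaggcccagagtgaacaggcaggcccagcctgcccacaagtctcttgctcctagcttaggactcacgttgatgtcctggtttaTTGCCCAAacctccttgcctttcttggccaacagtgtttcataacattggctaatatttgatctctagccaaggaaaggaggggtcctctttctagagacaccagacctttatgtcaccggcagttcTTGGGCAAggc
Ltf: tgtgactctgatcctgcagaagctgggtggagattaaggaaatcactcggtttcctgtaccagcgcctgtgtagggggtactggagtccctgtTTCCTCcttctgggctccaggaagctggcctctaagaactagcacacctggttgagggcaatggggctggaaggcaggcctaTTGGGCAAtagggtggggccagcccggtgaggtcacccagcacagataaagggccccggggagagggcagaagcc

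C/EBP factors and PU.1 are transcription factors of the neutrophil and monocyte lineages. A C/EBP match stood in a window of 5 of the 9 genes (S100a9, Retnlg, Ngp, Ltf and Plac8), in 5 of the 11 windows of the 9 genes, and in 9.56% of the 32851 promoter windows of all genes. Ngp held 2 of them, and the one nearest its start, TTGGGCAA, has the same letters as the match of Ltf. A PU.1 match stood in windows of S100a8, Ltf, Ly6c2 and Plac8, 4 of the 9 genes and 5 of the 11 windows, and in 23.3% of all windows. The TATA box stood 30 bases before the start of S100a8, directly after a PU.1 match, and in 12.4% of all windows. All 9 genes had a window in the RefSeq table, and Ly6c2 and Plac8 had 2 starts each. The 2 windows of Ly6c2 overlap, and the same PU.1 match is counted in both. Camp, a secondary granule gene whose window is not printed, and Ccr2 held no match to any of these motifs. The matches are a description of these letters.

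The values are FPKM, fragment numbers per length of transcript and per depth of library. On GRCm38, the targeted gene Il33 lies on chromosome 19 at 29925114 to 29960718 (ENSMUSG00000024810). It was listed at 0.424 to 2.28 FPKM in the 4 KO astrocyte libraries, against 96.3 to 113 FPKM in the 3 WT astrocyte libraries. In microglia it stood at 0 to 1.26 FPKM, so that it checks the labels of the astrocytes and not those of the microglia. The summed level of 12 microglia markers was 8091 to 8763 FPKM in KO microglia and 7858 to 8571 FPKM in WT microglia, against 36.5 to 71.4 FPKM in astrocytes. The number of reads is unknown, and steps in the low values gave depths of 73.7% to 100% of KO library 2 for microglia and 33.7% to 62.9% for astrocytes. The labels give no sex, and Xist, which females express from a silenced X chromosome, was listed at 0.145 to 0.376 FPKM in KO microglia and at 268, 283 and 0.713 FPKM in WT libraries 1 to 3. An exact 0 need not mean that a transcript was absent, since the astrocyte gene Slc1a2 was listed at 0 in 2 of the 7 astrocyte libraries.

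All 9 genes were found in the CD11b sorts. Averaged over the 6 microglia libraries, the order was S100a8 (70.6 FPKM), S100a9 (48.7), Retnlg (8.05), Ngp (7.26), Plac8 (3.35), Camp (2.27), Ccr2 (1.73) and Ltf (0.721). Ly6c2, which WT library 2 lists at 0, was below Ltf in 5 of 6 libraries. FPKM is a level per length, so these levels are set side by side, with a limit. The transcripts run from 486 bases (S100a8) to 5728 bases (Ccr2), and the settings by which length was corrected were not given. The step between S100a9 and Retnlg was the only one between neighbours in this order at which the ranges of the 6 libraries did not overlap. S100a8 was above S100a9 in 5 of 6 libraries, while Retnlg was above Ngp in 2 of 6 and Camp above Ccr2 in 3 of 6. S100a8, the highest of them, stood at 5.11% to 12.5% of the median microglia marker in KO libraries and at 17.7% to 29.5% in WT libraries. No KO library was the highest of the 6 for any of the 9 genes, while WT library 1 was highest for 4 genes, WT library 2 for 2 and WT library 3 for 3. The lowest was KO library 3 for 4 genes, KO libraries 1 and 2 for 1 each, WT library 2 for 1 and WT library 3 for 2. Over all genes, WT libraries were less alike (Pearson's r of 0.8725 to 0.8984 between pairs) than KO libraries (0.9247 to 0.9455). The share of all genes that are highest or lowest in each library was not counted.

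**Figure D1:**
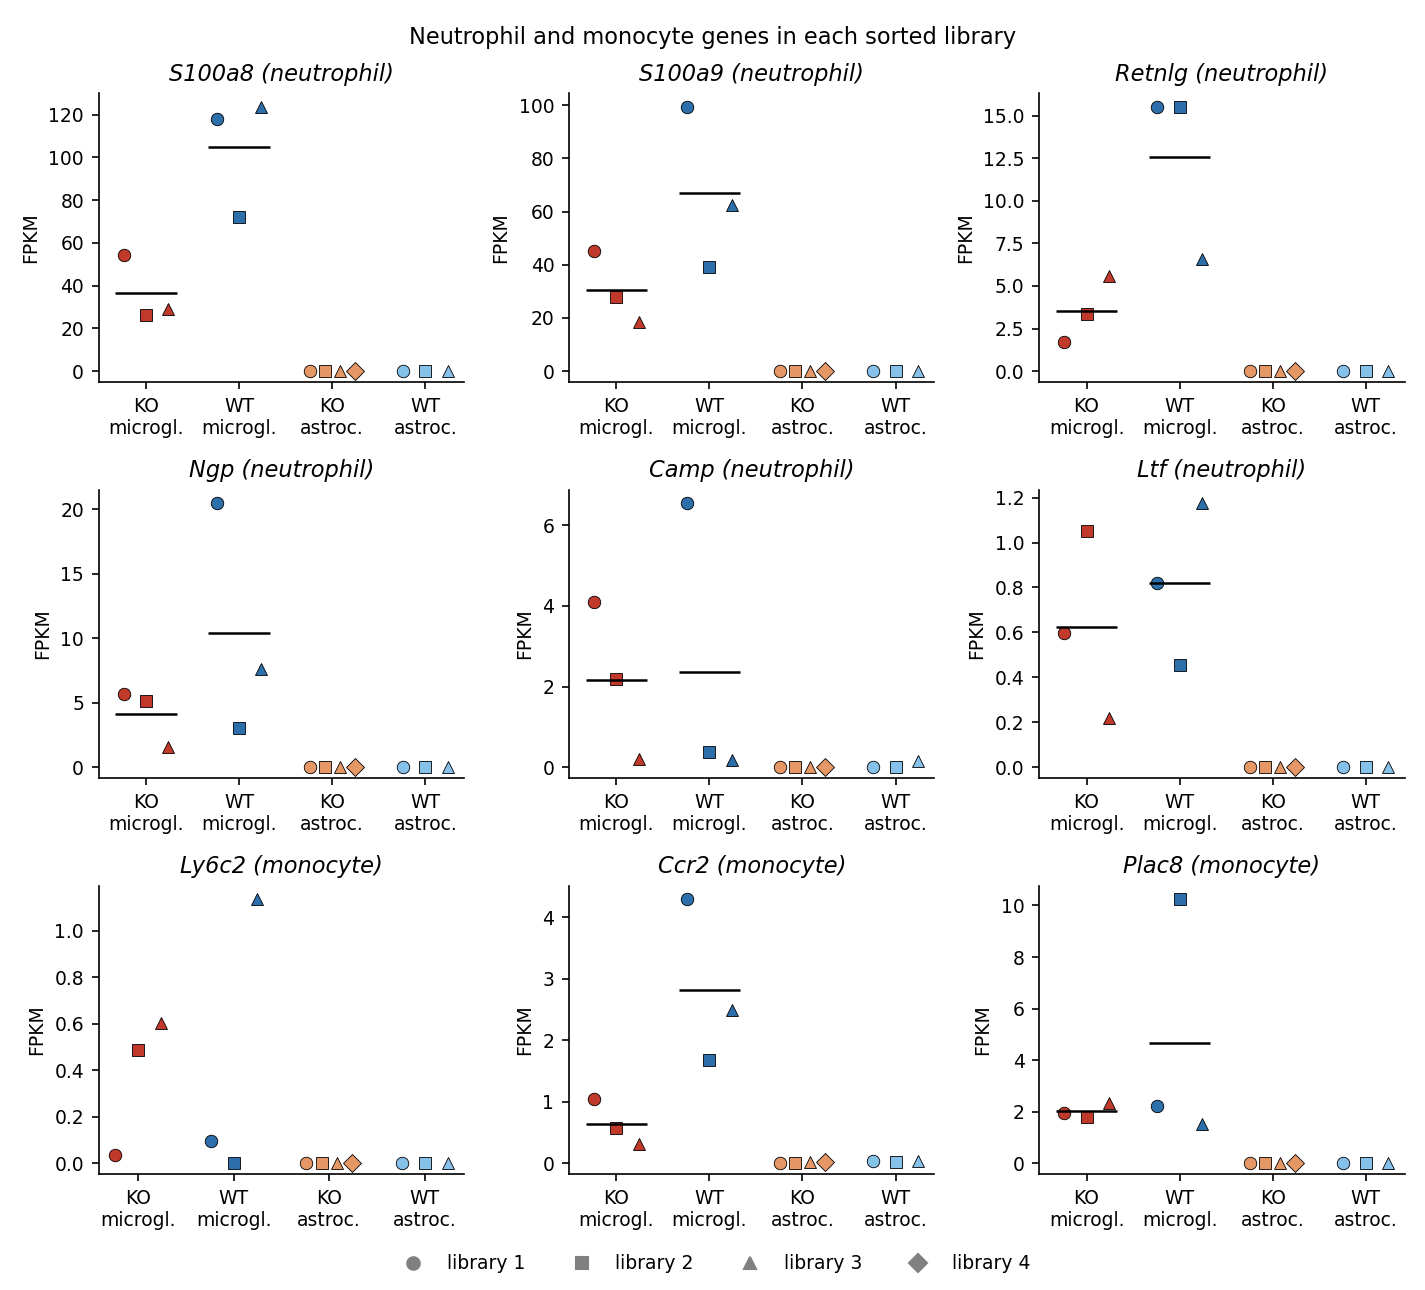
FPKM (linear axis from 0, a different range in each panel) of the 9 genes in each library, by group, with the symbol giving the library's number and the black line the mean of 3 microglia libraries (none for Ly6c2, which WT library 2 lists at 0). The 3 KO microglia libraries of S100a8, Retnlg and Ccr2 lie below all 3 WT libraries, while the points of the other 6 genes overlap, and nearly all astrocyte points lie at 0.

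KO and WT microglia were compared to ask whether the neutrophil and monocyte transcripts of the sort differ when the cord lacks interleukin-33. The values of S100a8, Retnlg and Ccr2 in all 3 KO libraries were below those in all 3 WT libraries, with KO means at 0.349, 0.282 and 0.229 of the WT means. None of the 9 genes passed the test across all genes (limma, Benjamini-Hochberg adjusted p under 0.05), which called 13 of 15892 genes (0.0818%). Of the 9, 3 had an unadjusted p under 0.05, all with KO lower, against 7.96% of all genes, 3.67% with KO lower. The KO-below-WT order without overlap held for 3 of 9 genes and for 7.48% of all genes, and the reverse order for none of the 9 and for 8.41% of all genes. The median difference of the 9 was −0.94 on the log2(FPKM + 1) scale, and that of all genes 0.023, with 7 of 9 genes and 47.7% of all genes below 0. Of the 9, 7 had a mean of at least 1 FPKM over the 6 libraries, the limit set for all genes, and Ltf and Ly6c2, which had not, were tested all the same. In bulk libraries fewer cells of a type and less RNA per cell cannot be told apart.

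S100a8 and S100a9 lie close together on chromosome 3 and encode calcium-binding proteins that join into calprotectin, an abundant protein of neutrophils that binds metals and acts as a danger signal. S100a8 (ENSMUSG00000056054, 90668978 to 90670035, plus strand) stood at 54.5, 26.1 and 28.9 FPKM in KO libraries 1 to 3, against 118, 72.3 and 124 FPKM in WT libraries 1 to 3. Every KO library was lower than every WT library, and the gap between KO library 1 and WT library 2 was the narrowest. The means were 36.5 ± 15.6 FPKM in KO and 104.7 ± 28.2 FPKM in WT (SD, n = 3 each). The limma difference was −1.53 (SE 0.36, adjusted p = 0.494). S100a9 (ENSMUSG00000056071, 90692632 to 90695721, minus strand) stood at 45.3, 27.7 and 18.4 FPKM in KO, against 99.4, 39.1 and 62.5 FPKM in WT. The groups overlapped, since KO library 1 was above WT library 2. The means were 30.4 ± 13.7 FPKM in KO and 67.0 ± 30.4 FPKM in WT (SD, n = 3 each), and the limma difference was −1.10 (SE 0.45, adjusted p = 0.595). S100a9 relative to S100a8 stood at 0.831, 1.06 and 0.635 in KO libraries and at 0.842, 0.541 and 0.506 in WT libraries.

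Retnlg (ENSMUSG00000022651, chromosome 16, 48872621 to 48874496) encodes a small secreted protein of the resistin family that mouse neutrophils make. It stood at 1.71, 3.34 and 5.57 FPKM in KO, against 15.5, 15.5 and 6.60 FPKM in WT. WT libraries 1 and 2 were alike and high, and WT library 3 lay just above KO library 3. The means were 3.54 ± 1.94 FPKM in KO and 12.5 ± 5.15 FPKM in WT (SD, n = 3 each), and the limma difference was −1.58 (SE 0.46, adjusted p = 0.549). In KO libraries Retnlg was highest where S100a9 was lowest, in library 3. The 2 WT libraries high in Retnlg were also the 2 high in Xist, and with Xist as a covariate the difference of Retnlg was −0.80 (adjusted p = 0.497). With that covariate the difference of S100a8 was −1.82 and that of Ccr2 −1.10, and neither was called (adjusted p = 0.198 and 0.361). All 3 KO libraries but only WT library 3 were low in Xist, so that fit sets KO largely against WT library 3 alone. The part of sex in these values was not tested.

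The 3 genes of secondary granules lie on chromosome 9. Ngp (ENSMUSG00000032484, 110419747 to 110423012) encodes neutrophilic granule protein, a relative of cathelicidin. It stood at 5.65, 5.17 and 1.58 FPKM in KO, against 20.5, 3.04 and 7.60 FPKM in WT. The groups overlapped, with WT library 2 below KO libraries 1 and 2 and WT library 1 far above the rest. The means were 4.13 ± 2.22 FPKM in KO and 10.4 ± 9.06 FPKM in WT (SD, n = 3 each; limma difference −0.94, SE 0.70, adjusted p = 0.739). Without WT library 1 the difference of Ngp was −0.32, and without WT library 2 it was −1.52.

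Camp (ENSMUSG00000038357, 109847379 to 109849617) encodes the precursor of the microbe-killing peptide cathelicidin. It stood at 4.10, 2.18 and 0.193 FPKM in KO, against 6.55, 0.379 and 0.186 FPKM in WT. A single WT library was high, and the other WT libraries were near the level of KO library 3. The means were 2.16 ± 1.95 FPKM in KO and 2.37 ± 3.62 FPKM in WT (SD, n = 3 each; limma difference 0.22, SE 0.90, adjusted p = 0.955). Ltf (ENSMUSG00000032496, 111019271 to 111042767) encodes lactoferrin, which binds iron. It stood at 0.599, 1.05 and 0.221 FPKM in KO, against 0.822, 0.456 and 1.18 FPKM in WT, so that both genotypes covered much the same range (limma difference −0.18, SE 0.39, adjusted p = 0.900). The direction of Camp turned without KO library 1 (−0.25), WT library 2 (−0.16) or WT library 3 (−0.27), and that of Ltf without KO library 3 (0.014).

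The granule genes did not keep a fixed ratio to S100a8. Camp relative to S100a8 stood at 0.0752, 0.0835 and 0.00668 in KO libraries 1 to 3 and at 0.0555, 0.00525 and 0.0015 in WT libraries 1 to 3. It was high in both KO libraries 1 and 2 and in WT library 1, in each of which Ngp relative to S100a8 was also at its highest (0.104, 0.198 and 0.174). In the other 3 libraries Ngp relative to S100a8 was 0.0547 in KO library 3, 0.042 in WT library 2 and 0.0615 in WT library 3. Retnlg relative to S100a8 took another order, with 0.0314, 0.128 and 0.193 in KO and 0.132, 0.215 and 0.0534 in WT. The S100 genes together made 82.1% to 92.3% of the summed FPKM of the 6 neutrophil genes in every microglia library. That sum was 111.8, 65.6 and 54.9 FPKM in KO libraries, against 261, 131 and 202 FPKM in WT libraries, with no overlap. It mostly repeats the S100 genes, and S100a9, Ngp, Camp and Ltf each overlapped between genotypes.

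**Figure D2:**
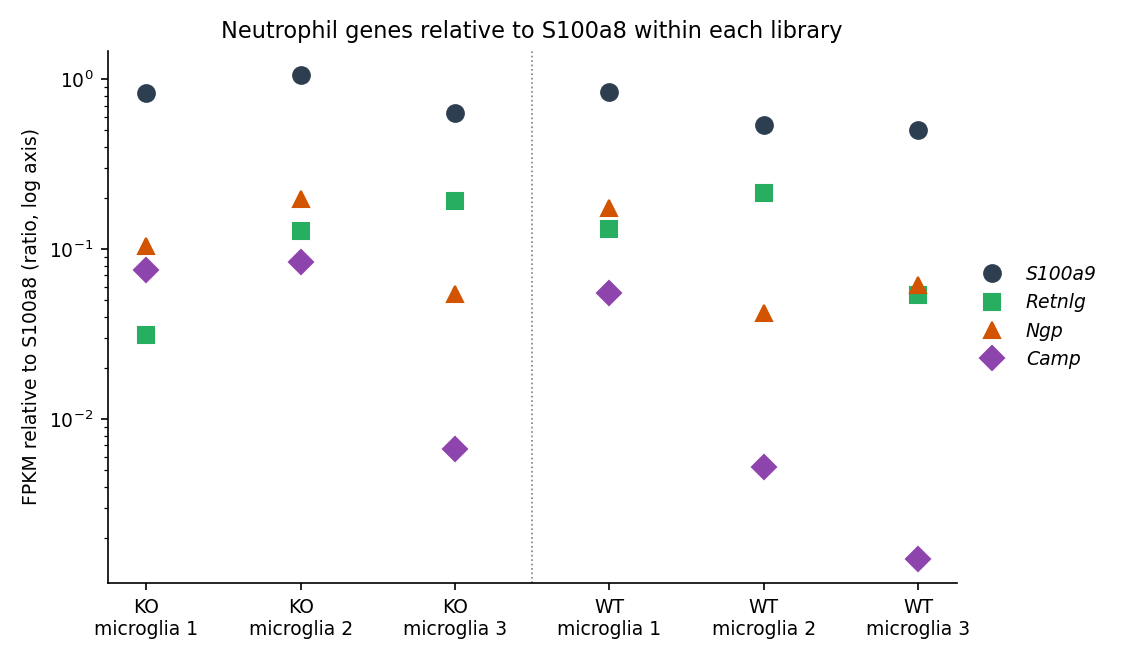
FPKM of S100a9, Retnlg, Ngp and Camp divided by the FPKM of S100a8 in the same library (log axis), for the 3 KO and the 3 WT microglia libraries. S100a9 stays between 0.506 and 1.06, while Camp spans from 0.0015 in WT library 3 to 0.0835 in KO library 2, with high and low values in both genotypes.

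Among the monocyte genes, Ccr2 (ENSMUSG00000049103, chromosome 9, 124101950 to 124113557) encodes the receptor through which CCL2 draws monocytes out of the marrow and into tissue. It stood at 1.05, 0.578 and 0.311 FPKM in KO, against 4.30, 1.68 and 2.49 FPKM in WT, with no overlap. The means were 0.646 ± 0.373 FPKM in KO and 2.82 ± 1.34 FPKM in WT (SD, n = 3 each), and the limma difference was −1.18 (SE 0.38, adjusted p = 0.557). On this scale the difference of a gene at such levels understates its fold change.

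Plac8 (ENSMUSG00000029322, chromosome 5, 100553725 to 100572245) encodes a cysteine-rich protein of monocytes that other leukocytes make too. It stood at 1.95, 1.80 and 2.34 FPKM in KO, against 2.22, 10.3 and 1.54 FPKM in WT. The single high library was WT library 2, and the other WT libraries lay close to the KO libraries. The means were 2.03 ± 0.278 FPKM in KO and 4.67 ± 4.85 FPKM in WT (SD, n = 3 each; limma difference −0.58, SE 0.59, adjusted p = 0.769), and without WT library 2 the difference was 0.079.

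Ly6c2 (ENSMUSG00000022584, chromosome 15, 75108158 to 75111970) encodes the surface protein Ly6C of classical monocytes. It stood at 0.0342, 0.489 and 0.606 FPKM in KO, against 0.0969, 0 and 1.14 FPKM in WT, and the groups overlapped (limma difference 0.03, SE 0.49, adjusted p = 0.991). Its sign also changed when KO library 2 or 3 or WT library 1 or 2 was left out (−0.18 to −0.04). Its values are uncertain, since 33% of the 50-base stretches of its transcript also stand in those of other genes, nearly all in Ly6c1. Ly6c1, which endothelial cells express, stood at 1.01, 1.23 and 0.235 FPKM in KO microglia and at 2.47, 0.737 and 2.42 FPKM in WT microglia. Of the other genes described here, 7 shared no such stretch and Ccr2 shared 2.27%.

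**Figure D3:**
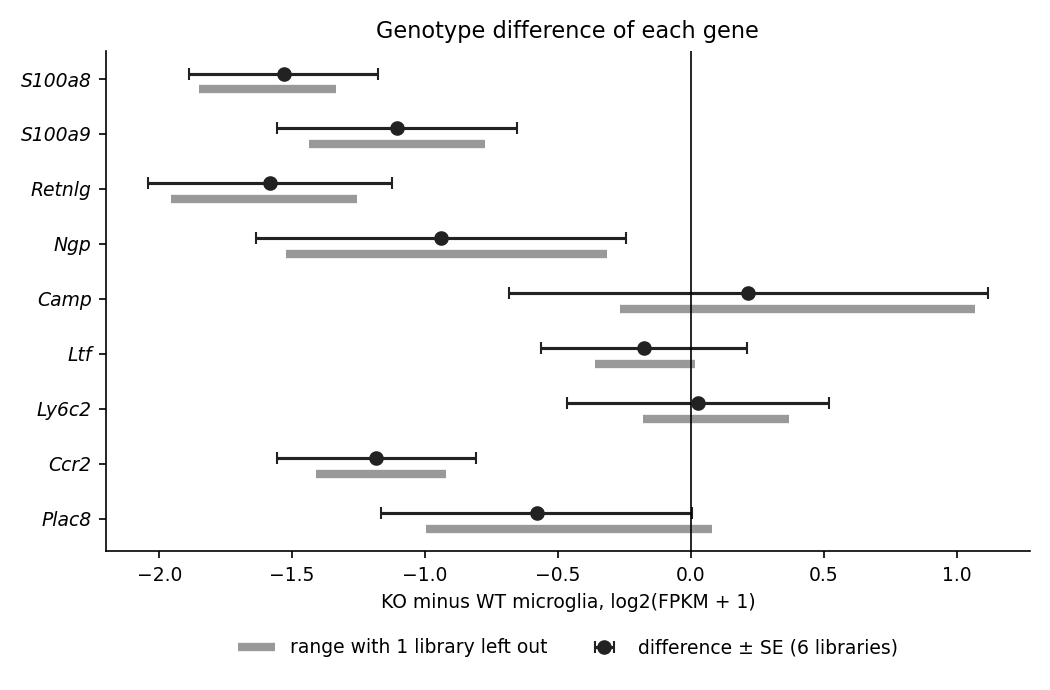
Difference of KO minus WT microglia on the log2(FPKM + 1) scale for the 9 genes (points, limma estimate with its SE from 6 libraries) and the range of the difference when 1 library is left out (grey bars). The grey bars of S100a8, S100a9, Retnlg, Ngp and Ccr2 stay below 0, and those of Camp, Ltf, Ly6c2 and Plac8 reach across 0.

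The authors' deposited table of microglial genes that differ by genotype lists 483 genes, 2 of the 9 among them. FPKM were given for 39171 genes, and how many of them the authors tested is not stated. In the authors' deposited table, S100a8 had mean normalised counts of 262 in KO and 774 in WT (adjusted p = 0.006). Ccr2 had mean normalised counts of 87.05 in KO and 322 in WT in the authors' deposited table (adjusted p = 0.0278). Retnlg, whose FPKM did not overlap either, is not among its genes. The authors' deposited table of astrocytes lists 10 genes and none of the 9.

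In astrocytes the same genes were listed at or near 0. No astrocyte library, KO or WT, gave a value above 0 for S100a8, S100a9, Retnlg, Ngp, Ltf, Ly6c2 and Plac8. Camp was listed at 0.154 FPKM in WT library 3, which is of day 9, and at 0 in the other astrocyte libraries. Ccr2 was at 0 to 0.0196 FPKM in KO astrocytes and at 0.0189 to 0.0357 FPKM in WT astrocytes. Camp and Ccr2 could thus be fitted between KO and WT astrocytes, and neither passed the test, which called 0.0224% of 13399 genes. For 8 of the 9 genes, Ly6c2 apart, every microglia library lay above every astrocyte library, as it did for 23.4% of all genes.

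Set against WT astrocytes, WT microglia were higher in 6 of the 9 genes, against 29.1% of 16261 genes in that direction and 53.6% in either (limma on 13 libraries with age as a covariate). These were S100a8 (adjusted p = 4.35e-08), S100a9 (adjusted p = 4.1e-07), Retnlg (adjusted p = 2.77e-05), Ngp (adjusted p = 0.00095), Ccr2 (adjusted p = 0.00169) and Plac8 (adjusted p = 0.00445). KO microglia were higher than KO astrocytes in 5 of them, as were 31.9% of all genes (56.9% were called in either direction), with adjusted p from 1.22e-07 for S100a8 to 0.0144 for Plac8. Ccr2 had an adjusted p of 0.113 in that comparison, with a difference of 0.68 (SE 0.34) against 1.84 (SE 0.37) in WT. The difference between these 2 differences was −1.16 (SE 0.48, adjusted p = 0.750). The interaction test called 0.141% of all genes and none of the 9, of which 3 had an unadjusted p under 0.05, against 6.62% of all genes. With 7 of the 9 genes at 0 in all astrocyte libraries, it gives back their difference in microglia (S100a8 −1.53 and Retnlg −1.58 in both). Whether the genotype difference depends on the cell type could thus not be tested for them. Genes at 0 in astrocytes passed the filter over the 13 libraries through microglia alone, so their calls between cell types are a description. Ccr2, Ltf and Ly6c2 were below that filter and were tested all the same.

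These comparisons between cell types depend on the scaling. The median of all genes was 0.21 in WT and 0.24 in KO, and −0.064 and −0.078 with quantile normalisation. The calls over all genes split into 4738 higher and 3981 lower in WT microglia, and 3764 and 4930 with quantile normalisation, and into 5181 higher and 4073 lower in KO microglia, and 4082 and 5160. Under quantile normalisation the 6 calls among the 9 genes in WT were 6 again, while in KO the call of Plac8 was lost (adjusted p = 0.115) and the difference of Ccr2 was −0.00707.

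Other genes of the 2 lineages were read from lists, described by their counts and medians. Mature neutrophil genes passed the filter in 11 of 21 cases, with a median difference of −0.15, 8 below 0 and none past the test. With 1 library left out, this median was −0.39 (WT library 3), −0.28 (WT library 2), −0.26 (WT library 1) and −0.089 (KO library 3), among others. Csf3r, the receptor of the neutrophil growth factor, stood at 278, 293 and 251 FPKM in KO, against 218, 216 and 343 FPKM in WT. Its level was far above that of S100a8 and did not follow it, and microglia are known to express Csf3r. Ly6g, which defines mouse neutrophils in flow cytometry, was listed at 0 in all 6 microglia libraries and in every astrocyte library. As with Slc1a2, such a 0 need not mean that the transcript was absent.

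Of the stefin genes, inhibitors of cathepsins that mouse neutrophils express, Stfa2l1 and Stfa2 came closer to S100a8, while Stfa3 did not. Stfa2l1 stood at 2.90, 8.73 and 11.5 FPKM in KO, against 28.2, 32.0 and 64.0 FPKM in WT, with no overlap (limma difference −2.35, SE 0.53, adjusted p = 0.482). All KO libraries lay below all WT libraries for 7.48% of all genes. The authors' deposited table gives Stfa2l1 mean normalised counts of 60.5 in KO and 340 in WT (adjusted p = 0.00323). Stfa2 stood at 5.16, 7.30 and 18.1 FPKM in KO, against 55.8, 16.1 and 27.6 FPKM in WT, where KO library 3 was above WT library 2 (limma difference −1.61, SE 0.59, adjusted p = 0.595). Stfa2l1 and Stfa2 were at 0 in every astrocyte library. These 2 genes share 50-base stretches with each other (16.8% of those of Stfa2l1 and 14.7% of those of Stfa2), so that the split of reads between them is uncertain. With all other genes counted, the shares were 24.6% and 15.9%. Stfa3, named after its values were seen, stood at 5.28, 4.95 and 6.06 FPKM in KO, against 10.01, 7.16 and 0.31 FPKM in WT. Its limma difference was 0.39 (SE 0.81, adjusted p = 0.894). BC100530 of the same list, also named after its values were seen, had a limma difference of 0.036 (SE 0.45, adjusted p = 0.988). It shares 48.9% of its 50-base stretches with other genes, Stfa1 among them. Both were lowest in WT library 3, where S100a8 was highest.

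The 3 most abundant primary granule genes were highest in WT library 3. Elane, the gene of neutrophil elastase, stood at 1.31, 0 and 0.0287 FPKM in KO, against 0.0302, 0 and 21.2 FPKM in WT. Mpo, the gene of myeloperoxidase, stood at 4.55, 0.259 and 0.303 FPKM in KO, against 0.513, 0.576 and 10.99 FPKM in WT. Prtn3, another protease gene, was listed at 8.04 FPKM in WT library 3 and at 0.953 FPKM in KO library 1, and at 0 in the other microglia libraries. KO library 1 was the next highest for all 3 genes, an order that no secondary granule gene described above shared. Of the 9 genes of this list 3 passed the filter, none passed the test, and the median difference was −0.74 (−1.26 without KO library 1 and −1.27 without WT library 1 or 2). Elane and Prtn3 passed the filter only through WT library 3, and without it Mpo alone was left, with a difference of 0.44. Fcnb, a ficolin gene of the list named after its values were seen, was highest in KO library 1, at 1.69 FPKM in KO library 1 and 0.037 FPKM in WT library 3.

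Of 13 further genes of secondary and tertiary granules, 7 passed the filter, with a median difference of −0.17 (0.12 without WT library 1, −0.28 without WT library 2 or 3, and 0.072 when KO library 3 was left out) and none past the test. Lyz2, the lysozyme gene that microglia and other macrophages share, stood at 182, 187 and 145 FPKM in KO, against 378, 128 and 100.1 FPKM in WT. Cybb, a subunit of the oxidase that makes superoxide, stood at 8.82, 8.57 and 10.1 FPKM in KO, against 14.04, 12.8 and 6.15 FPKM in WT. Pglyrp1, which binds bacterial cell walls, stood at 4.89, 7.61 and 3.34 FPKM in KO, against 4.21, 0.731 and 6.09 FPKM in WT. All 3 overlapped between genotypes. Pglyrp1 was at similar levels in astrocytes, with 2.84 to 9.06 FPKM in KO and 1.23 to 2.98 FPKM in WT. Lyz2 and Cybb were lower in every astrocyte library than in every microglia library. Lyz2 shares 15.4% of its 50-base stretches with other genes, Mpo 12% and Csf3r 11.5%, so that some of their reads may belong elsewhere.

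Classical monocyte genes passed the filter in 14 of 22 cases, 12 of them with a difference below 0, a median of −0.38 (−1.14 without WT library 3, 0.012 without WT library 1, and −0.62 when KO library 1 was left out) and none past the test. Crip1, a small LIM protein gene, stood at 21.3, 11.8 and 10.4 FPKM in KO, against 142, 19.0 and 1.32 FPKM in WT. F13a1, a coagulation factor gene of monocytes and macrophages, stood at 16.2, 10.7 and 8.63 FPKM in KO, against 20.9, 17.6 and 7.23 FPKM in WT. Vcan, a matrix gene that oligodendrocyte precursors express too, stood at 17.99, 9.26 and 4.81 FPKM in KO, against 25.9, 14.4 and 2.94 FPKM in WT. In each of them WT library 1 was the highest and WT library 3 the lowest of all 6, so that WT spanned KO. S100a4 and S100a6, named after their values were seen, were also highest in WT library 1, at 51.4 and 25.3 FPKM. Not all of these genes are particular to the CD11b sort. In astrocytes Vcan stood at 25.8 to 58.6 FPKM in KO and 8.29 to 58.8 FPKM in WT. S100a6 stood there at 24.4 to 62.1 FPKM in KO and 20.2 to 54.2 FPKM in WT, while F13a1 reached only 0.955 FPKM. Cd44 and Napsa, of the 14 genes, had an unadjusted p under 0.05 and no overlap, and were chosen for that after their values were seen. Of all genes, 7.96% had such a p in limma and 7.48% had all KO below all WT libraries. Napsa, an aspartic protease gene, had mean normalised counts of 38.7 in KO and 171.8 in WT in the authors' deposited table (adjusted p = 0.00814). Napsa shares 10.9% of its 50-base stretches with other genes and S100a4 56.3%, and their values are uncertain.

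Non-classical monocyte genes passed the filter in 4 of 10 cases, with a median difference of −0.40 (−0.13 without WT library 3 and −0.24 without KO library 3) and none past the test. Pou2f2, a transcription factor gene that B cells also express, stood at 56.7, 55.4 and 60.5 FPKM in KO, against 68.3, 64.8 and 125 FPKM in WT. Every KO library of Pou2f2 was below every WT library, as for 7.48% of all genes (limma difference −0.51, SE 0.28, adjusted p = 0.659). Cd36, a scavenger receptor gene, stood at 5.73, 4.91 and 4.65 FPKM in KO, against 9.12, 5.94 and 4.86 FPKM in WT. Eno3, the muscle form of enolase, stood at 5.98, 10.3 and 6.18 FPKM in KO, against 2.82, 4.94 and 3.30 FPKM in WT. Every KO library of Eno3 was above every WT library, as for 8.41% of all genes (limma difference 0.84, SE 0.29, adjusted p = 0.582). Eno3 is not particular to this sort, with 3.05 to 5.91 FPKM in KO astrocytes and 0.573 to 5.75 FPKM in WT astrocytes. Pou2f2 and Cd36 reached only 0.689 and 0.0601 FPKM in astrocytes.

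**Figure D4:**
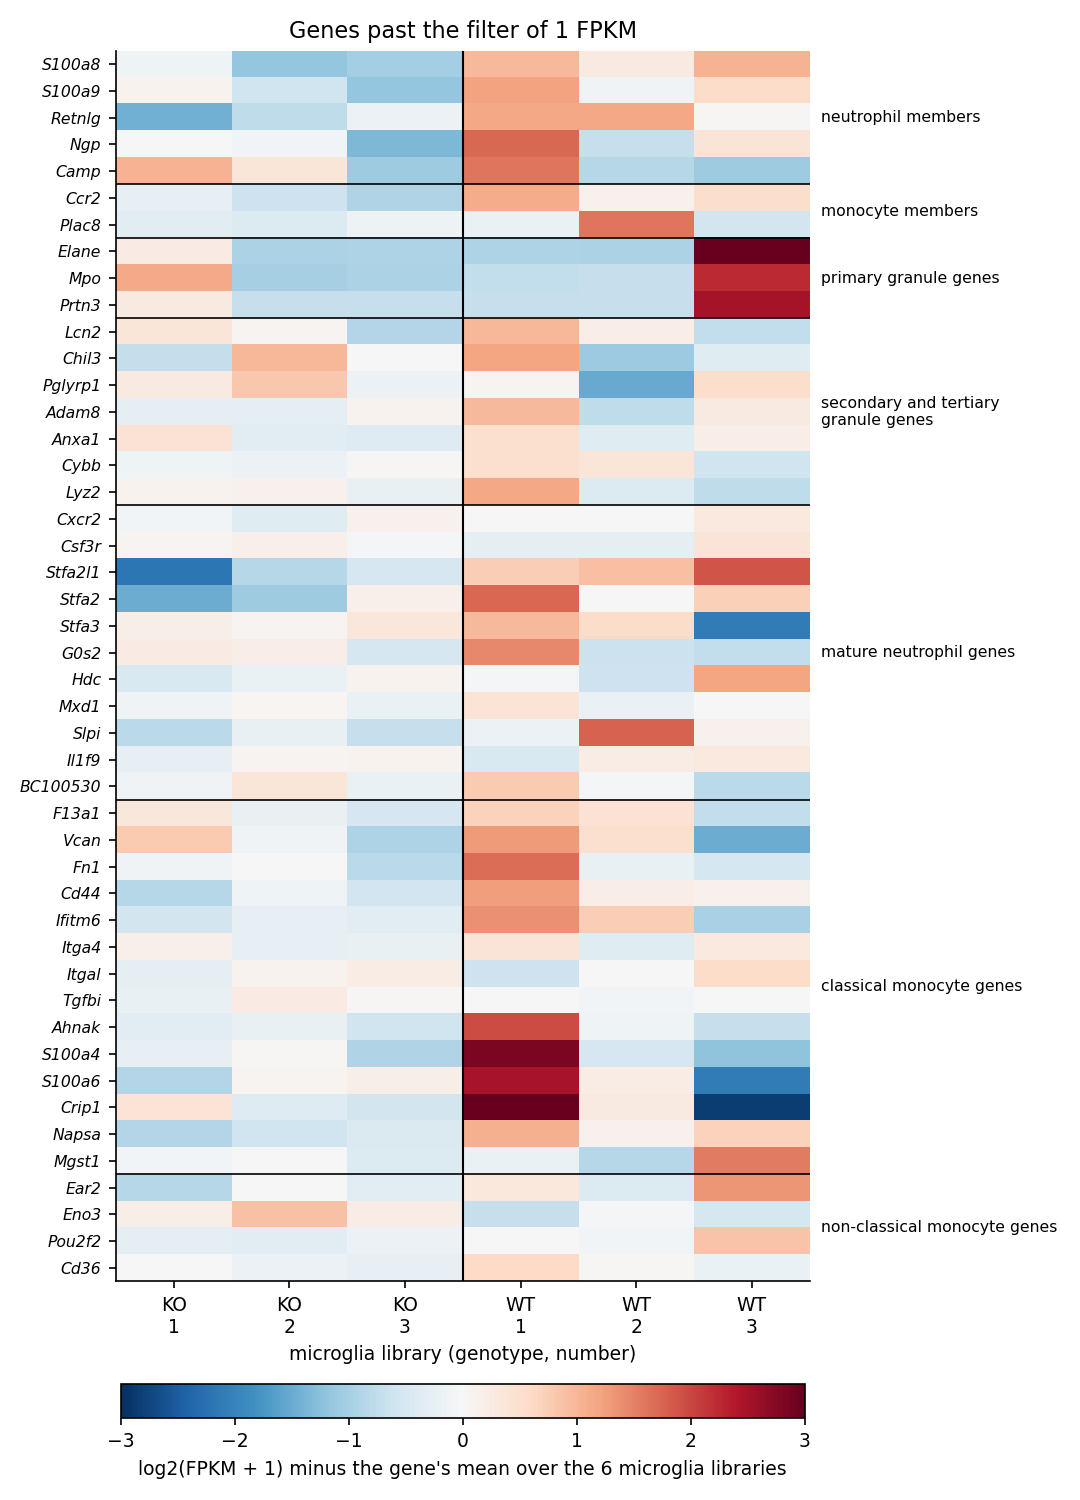
Log2(FPKM + 1) minus the gene's mean over the 6 microglia libraries (color, ending at −3 and 3) for the genes of each list with a mean of at least 1 FPKM, KO libraries left and WT libraries right. Elane, Mpo and Prtn3 are highest in WT library 3 and Crip1, S100a4 and S100a6 in WT library 1, while S100a8, Stfa2l1, Ccr2 and Napsa are lower in all 3 KO libraries than in all 3 WT libraries.

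The genes whose products meet those of the 9 were all measured in the same sorts. All 7 passed the filter, with a median difference of 0.27 (−0.33 without WT library 3 and 0.097 without KO library 1) and none past the test. Lrp1, an endocytic receptor that takes up lactoferrin, stood at 204, 207 and 196 FPKM in KO, against 147, 236 and 113 FPKM in WT. Bsg, which encodes a receptor of S100A9, stood at 188, 187 and 196 FPKM in KO, against 233, 138 and 105 FPKM in WT. Ccl12, a mouse ligand of CCR2, stood at 129, 109 and 152 FPKM in KO, against 174, 176 and 252 FPKM in WT, with no overlap (limma difference −0.62, SE 0.22, adjusted p = 0.591). Such an order, KO below WT, held for 7.48% of all genes.

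Other marker lists were read in the same libraries. Of 13 dissociation-induced genes, all had a difference below 0 (median −0.52), with a summed level of 2677 to 3085 FPKM in KO microglia and 4171 to 5702 FPKM in WT microglia. Zfp36, an mRNA decay factor gene and the most abundant of them, stood at 1208, 1199 and 1347 FPKM in KO, against 2309, 1825 and 2737 FPKM in WT. All 9 oligodendrocyte markers had a difference above 0 (median 0.78), with sums of 1612 to 2641 FPKM in KO and 1073 to 1822 FPKM in WT. Mbp, the myelin basic protein gene, stood at 1833, 1782 and 1119 FPKM in KO, against 1461, 1126 and 829.025 FPKM in WT, where the groups overlapped. Of 11 border macrophage markers, 10 passed the filter and 9 lay below 0 (median −0.39, −0.25 without WT library 1 and −0.60 without WT library 3), with sums of 912 to 999.9 FPKM in KO and 969 to 1924 FPKM in WT. Stab1, a scavenger receptor gene, stood at 534, 472 and 449 FPKM in KO, against 1082, 587 and 621 FPKM in WT. Among its 483 genes, the authors' deposited table lists 5 of the 13 dissociation-induced genes, lower in KO, and the oligodendrocyte genes Mag and Cldn11, higher in KO. None of the genes of these lists passed limma's test across all genes, and their part in the values of the neutrophil and monocyte genes was not tested. Microglia markers had a median difference of 0.036, 6 below 0 and 6 above 0.

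The remaining lists covered cells that the sort could also hold. Lymphocyte and natural killer cell markers summed to 16.2 to 19.4 FPKM in KO and 19.0 to 24.4 FPKM in WT, with 2 of 13 past the filter, and Cd79b gave most of that sum. Dendritic cell markers summed to 4.89 to 9.07 FPKM in KO and 6.76 to 13.7 FPKM in WT (3 of 6 past the filter), led by Zbtb46. Erythroid and platelet markers summed to 11.7 to 43.5 FPKM in KO and 30.3 to 52.7 FPKM in WT (4 of 8), led by Gp9. Endothelial and mural markers summed to 21.6 to 31.9 FPKM in KO and 23.1 to 32.2 FPKM in WT (6 of 9), led by Pecam1, and astrocyte markers to 72.4 to 112 FPKM in KO and 72.7 to 103 FPKM in WT (9 of 10), led by Slc1a2. Mast cell and basophil markers, of which Mcpt4 had the highest mean over the 6 libraries, reached 0.0754 FPKM in KO and 0.733 FPKM in WT, with Cma1, Mcpt8 and Fcer1a at 0 in all 6 libraries and none past the filter. No gene of these lists passed limma's test, while the authors' deposited table lists Gfap as higher in KO and Gjb6 and Kcnj8 as lower in KO.

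The genes most like the 9 in their pattern over the 6 microglia libraries were found among 11601 protein-coding genes by Pearson's r with the mean log2(FPKM + 1) of the group. For the 6 neutrophil genes they were Acaca (0.980), Nlgn3 (0.979), Ggps1 (0.977), Ccer2 (0.974) and Prpf3 (0.972). Of these 5, Ccer2 alone was, like 5 of the neutrophil genes, at 0 in every astrocyte library. For the 3 monocyte genes they were Vmp1 (0.985), Ptar1 (0.981), Slc35f1 (0.981), Osm (0.979) and Rps20 (0.978). With 6 libraries and so many genes, such values are a description of these libraries.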

How the data were processed

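Per the labels' protocols, RNA was extracted with TRIZOL, freed of DNA with DNase, and library preparation used NuGEN RNA-Seq V2. The submitters' processing notes name the build GRCm38 and the tools Bowtie2 2.2.3 and TopHat2 2.0.11, with Cuffnorm, Cufflinks, DESeq2, HTSeq 0.6.1p1 and FastQC. Their settings, strandedness, annotation and scaling between libraries were not given in the sources used here. For 39171 genes in 13 libraries, the authors deposited FPKM. The authors also deposited, per the file headers, per cell type a table that holds each genotype's mean normalised counts (signal), log2 fold changes of WT over KO, a test score, and p-values. Their columns carry the names that DESeq2 writes, per the file headers.

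Samples were grouped by their titles. Of the gene identifiers, 96% were found in GENCODE release 21 of the mouse, which gave symbols and coordinates. FPKM are not counts, so groups were compared with limma 3.58.1 in R 4.3.3 (two-sided, eBayes with a trend after lmFit) on the log2(FPKM + 1) scale. Genes with a mean of at least 1 FPKM over the fitted libraries were kept, and the 9 genes and Il33 in any case. Adjustment was by Benjamini-Hochberg over all genes, with a threshold of 0.05. Microglia were fitted alone, astrocytes with age as a covariate, and cell types and the interaction in all 13 libraries with age. Values are mean ± SD where no library was listed at 0. The fit was tested on simulated data. Shared stretches were counted between each gene's longest coding transcript and all other transcripts. Promoters are from RefSeq.

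The 9 genes and the 16 other gene lists were chosen with earlier results of these data known. The text names all 9, Il33, Ly6c1, the 3 most abundant genes and any called gene of each list of the 2 lineages or of ligands and receptors, the most abundant gene of each other list except 1 that is not reported here, the 5 genes most alike, and any of the 9 in the authors' tables. Alternatives were another pseudocount (0.1), no filter, other scalings, no trend, covariates, the replicate number as a block, and each library left out. The absolute depth is unknown, so no counting interval was computed.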

Additional observations from a re-analysis of the deposited data

How the results depend on the processing

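Under every setting tried, none of the 9 genes was called between KO and WT microglia, between KO and WT astrocytes, or in the interaction. The adjusted p of S100a8 for KO minus WT microglia ranged from 0.0922 to 0.955. S100a8, S100a9, Retnlg, Ngp and Ccr2 kept a difference below 0 in that comparison under all of them. Ly6c2 turned to −0.24 with quantile normalisation and −0.73 with Xist as a covariate, and ranged from −0.18 to 0.37 with 1 library left out. Plac8 turned to 0.32 with Xist as a covariate and ranged from −0.996 to 0.079 with 1 library left out. Camp ranged from −0.27 to 1.07 and Ltf from −0.36 to 0.014 with 1 library left out. Ccr2 in KO microglia against KO astrocytes turned to −0.00707 with quantile normalisation. The fit with Xist as a covariate sets KO largely against WT library 3 alone. In it the median differences of the classical monocyte, secondary and tertiary granule, and border macrophage lists turned to 0.35, 0.46 and 0.099. The cause was not tested for any of these.

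Counts of genes called moved more. For KO minus WT microglia the 13 genes became 25 with a pseudocount of 0.1 and 7 with no filter, where more genes are tested. They became 37 in the fit of all 13 libraries and 18 to 48 with 1 library left out. With Xist as a covariate, a fit that sets KO largely against WT library 3 alone, they became 258. For KO minus WT astrocytes the 3 genes became 5 with a pseudocount of 0.1, 0 with no filter (847 genes at an unadjusted p under 0.05 in limma), and 0 to 8 with 1 library left out. The interaction went to 37 genes with no filter, against 23, and to 15 to 75 with 1 library left out. The 5 of the 9 genes called in KO microglia against KO astrocytes became 8 with a pseudocount of 0.1, and 5 to 6 with 1 library left out. The 3 genes with all KO below all WT microglia libraries became 3 to 5 with 1 library left out, where fewer libraries must be separated. With the replicate number of the titles as a block, 3 genes were called in microglia and 0 in astrocytes (469 genes at an unadjusted p under 0.05 in limma). The numbers do not pair the libraries by the labels, and the deviations of same-numbered libraries had correlations of 0.0276, 0.00984 and 0.0228 in microglia and 0.0209, −0.0783 and −0.0172 in astrocytes, so the block is given as a count only. A replicate left out of a group of 3 leaves 2, and depth limits the genes under 1 FPKM most.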
